A study of Mus musculus with 6 samples.

Results

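Cd44, Tnc, Fn1, Cdh6, Cdh11, Nrp1, Map1b, Hdac9 and Frmd4a were followed through every class of nuclei in the mouse kidney cortex. These 9 genes, of 31053 in the count tables, were picked because their counts were higher in parietal-like nuclei of knockout libraries than of control libraries. That contrast is therefore a description here, with no test, and tests were run only in other classes of nuclei. Knockout parietal-like nuclei carried all 9 genes at higher levels than control parietal-like nuclei, and 51.6% of them held at least 3 of the genes at 800 UMIs (unique molecular identifiers, each standing for 1 captured RNA) per nucleus. Outside these nuclei Cd44 was the 1 member that passed the test, in injured-tubule-like nuclei, and Tnc, Fn1 and Cdh11 were also read in nuclei led by Csmd1.

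Parietal epithelial cells are the flat cells that line Bowman's capsule, facing the podocytes of the glomerular tuft across the urinary space. In glomerular disease they can become activated: they enlarge, divide, move and lay down matrix, and the hyaluronan receptor CD44 is widely used to mark that state. Injured proximal tubule cells can also make CD44 while they repair. Tenascin C and fibronectin, from Tnc and Fn1, are matrix proteins bound by integrins. CD44 and neuropilin 1 (Nrp1) are receptors at the cell surface, and Cdh6 and Cdh11 encode cadherins, which hold cells together. Map1b encodes a microtubule-associated protein, Frmd4a a FERM-domain scaffold of epithelial polarity, and Hdac9 a class IIa histone deacetylase that acts with MEF2 transcription factors.

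Nuclear RNA was counted in single nuclei (10x Chromium) of kidney cortex from FVB/N mice. The 3 control libraries were Klf4 fl/fl and the 3 knockout libraries were Podocin-Cre Klf4 fl/fl, so both groups carry the floxed Klf4 alleles and the knockouts alone carry the recombinase. The Podocin promoter drives the Cre in podocytes, and any recombination in parietal or tubule cells was not measured. The labels give no age or sex, and they do not say that the libraries came from separate animals, so p-values measure only the spread between these libraries, which may be technical.

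The libraries held 3741 to 18238 kept nuclei each, from totals of 8270961 to 62016616 UMIs, with a median of 1092 to 2018 UMIs per kept nucleus. Control 1 and knockout 1 stood apart from the other 4 libraries, with a median mitochondrial share of 2.54% and 1.09% against 0.0845 to 0.163%. Pairs of libraries shared 5 to 132 cell barcodes, or 0.0983 to 1.39% of the smaller library. Klf4, the transcription factor gene with the floxed alleles, had 1 UMI in control and 5 in knockout podocyte-like nuclei (0.82 ± 1.42 and 6.59 ± 5.71 CPM, UMIs per 1000000 UMIs of the class in a library; SD, n = 3). A group total of 3 UMIs would be 4.23 and 4.94 CPM there, so a loss of Klf4 was not detectable at this depth, and the groups are taken from the labels.

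Parietal-like nuclei were 1 cluster, S33, of 61 control nuclei (28, 16 and 17 in controls 1 to 3) and 108 knockout nuclei (55, 26 and 27). The 9 genes were left out of the clustering. The 7 markers of the type, among them Cldn1, Ncam1, Pax2 and Akap12, were all read in both groups, and Ncam1 and Akap12 stood among the 10 leading genes of the cluster. Tnc, Cdh6, Fn1 and Cdh11 stood among those 10 too, although they had no part in forming it. The summed parietal markers lay between 865 and 2355 CPM in the control libraries and between 1598 and 2971 CPM in the knockout libraries.

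The promoters of members are shown because members that are high in the same nuclei can be compared at their start sites. Of the 9 genes, 7 were found in the RefSeq promoter table (GRCm38.p6), with 12 start sites, and Fn1 and Cdh11 were not. The windows are the 250 bases before the start, written 5′ to 3′ on the strand of the gene. Capitals mark CCACCC, read on either strand, a CACCC-type sequence of the kind that KLF factors bind. The genome positions are chr2:102901666-102901915 (minus strand) for Cd44, chr4:64047016-64047265 (minus) for the upstream start of Tnc, chr15:13173676-13173925 (minus) for Cdh6, chr8:128358823-128359072 (plus) for Nrp1 and chr13:99516603-99516852 (minus) for Map1b.
Cd44: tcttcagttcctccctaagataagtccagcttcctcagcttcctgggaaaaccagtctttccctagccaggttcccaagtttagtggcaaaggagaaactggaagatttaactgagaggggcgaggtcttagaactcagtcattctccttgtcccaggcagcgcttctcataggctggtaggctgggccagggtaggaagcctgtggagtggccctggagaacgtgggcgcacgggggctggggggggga
Tnc: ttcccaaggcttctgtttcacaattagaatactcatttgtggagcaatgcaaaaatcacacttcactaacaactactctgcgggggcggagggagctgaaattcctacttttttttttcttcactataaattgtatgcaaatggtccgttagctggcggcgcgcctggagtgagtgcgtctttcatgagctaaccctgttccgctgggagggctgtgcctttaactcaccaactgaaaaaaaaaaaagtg
Cdh6: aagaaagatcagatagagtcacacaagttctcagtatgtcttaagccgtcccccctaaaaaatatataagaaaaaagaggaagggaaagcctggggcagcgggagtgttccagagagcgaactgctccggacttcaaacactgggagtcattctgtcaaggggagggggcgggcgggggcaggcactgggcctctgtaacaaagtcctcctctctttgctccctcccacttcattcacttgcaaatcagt
Nrp1: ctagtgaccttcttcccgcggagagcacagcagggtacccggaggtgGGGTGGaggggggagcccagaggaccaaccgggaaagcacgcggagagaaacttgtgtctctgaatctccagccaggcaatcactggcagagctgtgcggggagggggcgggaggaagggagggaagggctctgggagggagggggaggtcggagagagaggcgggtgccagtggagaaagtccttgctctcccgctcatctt
Map1b: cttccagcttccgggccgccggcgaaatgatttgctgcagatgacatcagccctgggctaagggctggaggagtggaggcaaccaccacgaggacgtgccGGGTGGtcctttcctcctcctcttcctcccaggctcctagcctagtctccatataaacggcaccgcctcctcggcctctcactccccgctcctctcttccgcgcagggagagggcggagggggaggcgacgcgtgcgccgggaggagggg

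The CACCC-type sequence was found in 5 of the 12 windows, of 4 genes (Nrp1, Map1b, Hdac9 and Frmd4a), where 28.1% of 32851 windows of this length hold it on either strand. An AP-1 sequence (TGANTCA, its own reverse complement) was found in 1 window, of Hdac9, against 6.75% of all windows. A TEAD sequence (GGAATG or CATTCC) was found in 0 of the 12 windows, against 12.6% of all windows. None of these 3 motifs occurs in the printed windows of Cd44, Tnc and Cdh6. A match is a run of letters and not a bound site, and the motifs do not overlap one another in these windows.

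In parietal-like nuclei, the matrix genes Tnc and Fn1 were both higher in every knockout library. Tnc, at chr4:63959785-64047015 in mm10, read 102, 144 and 221 CPM in controls 1 to 3 and 861, 3616 and 2766 CPM in knockouts 1 to 3. The groups do not overlap, and knockout 1 is the lowest of the knockouts. In all, 19 Tnc UMIs in the controls stood against 364 in the knockouts, so the level was 13.1 times as high (8.24 to 21.9 as the 95% interval of that ratio, counting error only). Fn1, at chr1:71585520-71653200, read 0 CPM in all 3 controls and 319.7, 1227 and 1750 CPM in the knockouts. With 0 and 170 UMIs, Fn1 was at least 38.6-fold higher, taking 3 UMIs in the 3 controls together as the floor. For both genes the order of the knockout libraries puts knockout 1 last.

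The receptors followed the same order of groups. Cd44, at chr2:102811141-102901665, read 0 CPM in all 3 controls and 148, 323 and 979 CPM in the knockouts. Its 80 knockout UMIs against 0 make it at least 18.2-fold higher by the same floor. Knockout 3 held a higher Cd44 level than the other knockouts, and all 3 lay above the controls. Nrp1, the co-receptor for semaphorins and VEGF at chr8:128358604-128503363, read 139.9, 173 and 110.4 CPM in the controls against 451, 936 and 1092 CPM in the knockouts. From 20 to 142 UMIs, its ratio of levels was 4.84 (3.02 to 8.16). Unlike Cd44 and Fn1, Nrp1 was read in the parietal-like nuclei of every control library.

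Of the cadherins, Cdh6, known from the developing nephron and placed at chr15:13028701-13173675, read 267, 86.5 and 368 CPM in the controls against 1582, 2196 and 2033 CPM in the knockouts. Cdh11, a cadherin known from mesenchyme and placed at chr8:102632095-102785642, read 0, 28.8 and 147 CPM in the controls against 508, 1033 and 1543 CPM in the knockouts. The groups are apart for both cadherins, and control 1 had no Cdh11 UMI. The ratio of levels was 7.40 for Cdh6 (34 to 369 UMIs, interval 5.20 to 10.8) and 24.0 for Cdh11 (5 to 176 UMIs, interval 10.1 to 74.8).

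Map1b, at chr13:99421446-99516540, read 12.7, 0 and 110.4 CPM in the controls against 295, 484 and 828 CPM in the knockouts. Frmd4a, at chr2:4017717-4614043, read 102, 144 and 147 CPM in the controls against 369, 743 and 941 CPM in the knockouts. Hdac9, at chr12:34047580-34917095, read 12.7, 28.8 and 36.8 CPM in the controls against 180.3, 258 and 621 CPM in the knockouts. These 3 genes of the cytoskeleton, polarity and chromatin were thus also apart between the groups. Their ratios of levels were 16.2 for Map1b (4 to 95 UMIs, interval 6.12 to 60.6), 4.73 for Frmd4a (17 to 118 UMIs, 2.83 to 8.39) and 14.3 for Hdac9 (3 to 63 UMIs, 4.68 to 71.3). In all, 9 of 9 members had every knockout library above every control library, where 11% of 891 genes did; the members were chosen on this contrast, and nothing is read from that count. The levels depend on how the class is drawn. With each cluster given its highest marker score Fn1 read 50.7 against 680.4 CPM and Tnc 68.9 against 1381 CPM. With the members among the clustering genes Fn1 read 0 against 517 CPM, Tnc 192 against 994 CPM and Cd44 0 against 961 CPM.

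**Figure D1:**
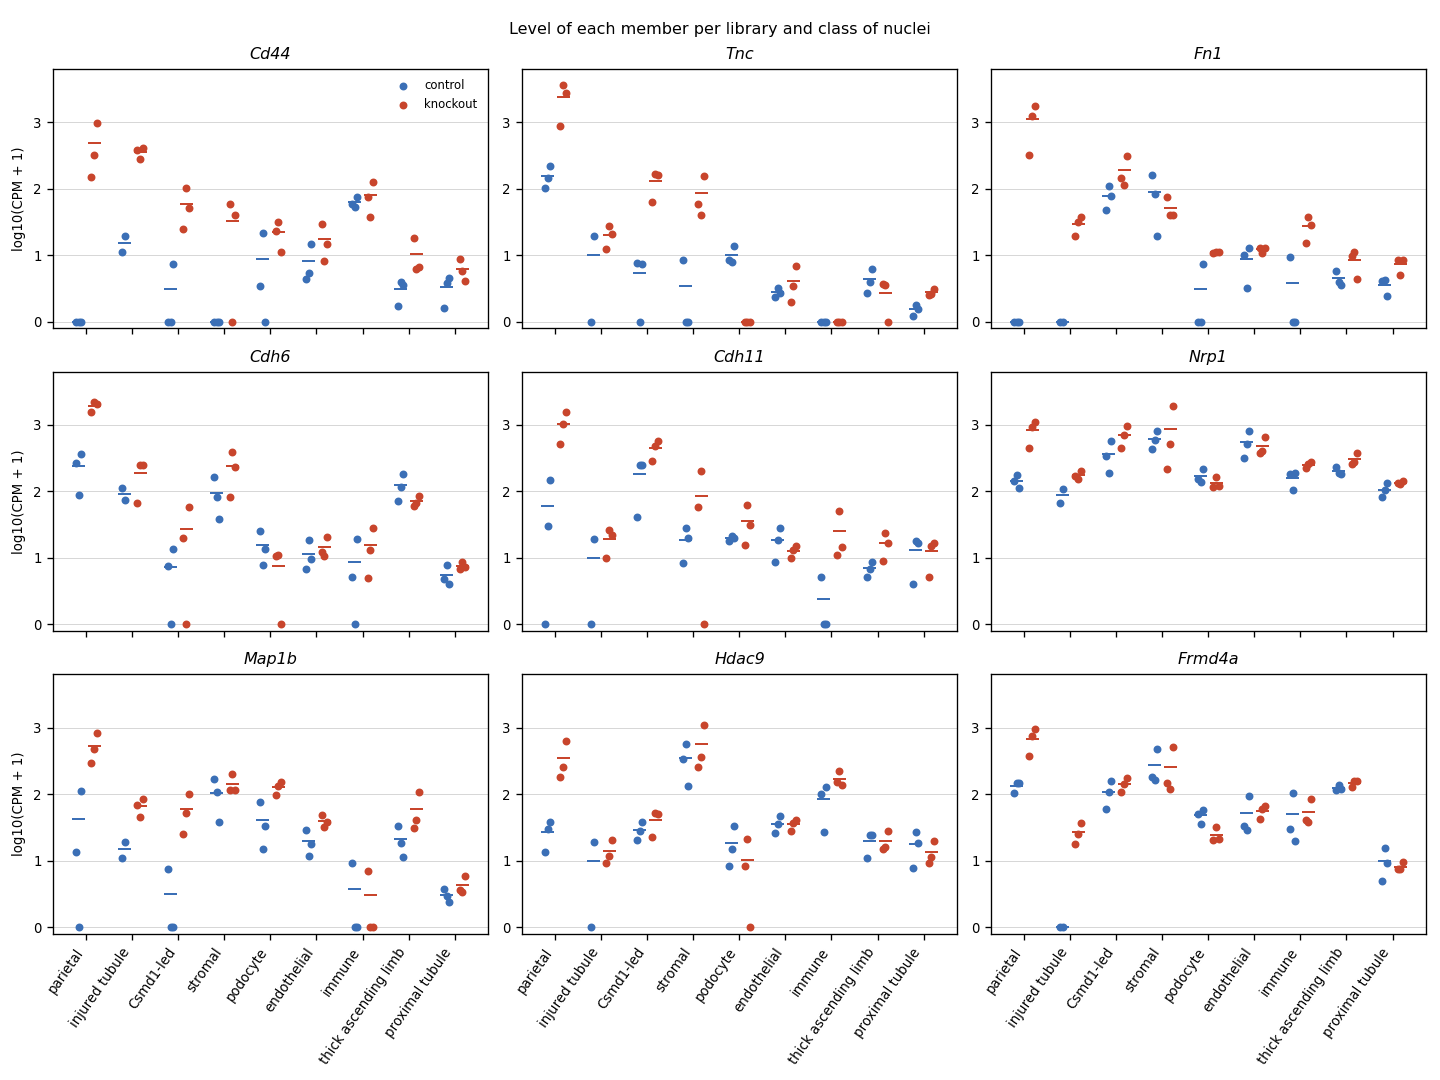
Level of each of the 9 genes per library (points, control blue, knockout red) as log10(CPM + 1), in 9 classes of nuclei on the horizontal axis; short lines are the mean CPM of the libraries plotted, on the same scale, and control 2 is left out of the injured tubule column, where it has 6 nuclei. In the parietal column the 3 knockout points lie above the 3 control points for all 9 genes.

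Other markers moved with the knockout libraries within the parietal-like cluster. The 13 markers of injured tubule summed to 173 to 626 CPM in the controls against 754 to 1162 CPM in the knockouts, with 7 of 13 higher; Lcn2, Krt8 and Cdkn1a were at 0 in the knockouts. The 14 stromal markers summed to 115 to 331 CPM and 258 to 1411 CPM, with 4 of 14 higher and Pdgfra, Lum, Gata3, Itga8, Myh11, Rgs5 and Notch3 at 0 in the knockouts. The 9 endothelial markers summed to 0 to 115 and 115 to 922 CPM, with 5 of 9 higher and Egfl7 and Ehd3 at 0 in the knockouts. Flt1 alone read 12.7, 0 and 0 CPM in the controls and 16.4, 291 and 866 CPM in knockouts 1 to 3. The 11 proximal tubule markers went the other way, from 9015 to 18230 CPM down to 2465 to 9172 CPM, with 0 of 11 higher. The 10 podocyte markers summed to 1614 to 2392 and 2008 to 3331 CPM, with 5 of 10 higher. The part of these other cell types in the levels of the 9 genes was not tested.

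The members were not spread evenly over the 108 knockout parietal-like nuclei. A Cd44 UMI was read in 25 nuclei, and 10 nuclei held 75.0% of its UMIs. Hdac9 was read in 23 nuclei, 10 of which held 79.4%, with 20 UMIs in 1 nucleus. Fn1 was read in 35 nuclei and Tnc in 64, and 10 nuclei held 64.7% and 47.8% of their UMIs. Cdh6 was read in 73 nuclei, with 42.8% of UMIs in 10 of them. The class levels of Cd44, Fn1 and Hdac9 thus came mostly from a few nuclei, while Tnc and Cdh6 were read in more than 1 of every 2 knockout nuclei.

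Each nucleus was then thinned to 800 UMIs to set depth equal, which left 48 of 61 control and 91 of 108 knockout parietal-like nuclei. At that depth Cd44 was read in 0 of 48 control nuclei, a count that allows 3 nuclei with a UMI (6.25%; counting error only), and in 16.5% of knockout nuclei. Tnc was read in 12.5% and 45.1%, Fn1 in 0 and 23.1%, Cdh6 in 22.9% and 52.7%, and Cdh11 in 8.33% and 33%. Nrp1 was read in 14.6% and 40.7%, Map1b in 2.08% and 28.6%, Hdac9 in 0 and 14.3%, and Frmd4a in 12.5% and 19.8%. Free RNA in droplets can give a UMI to any nucleus, and its level was not measured. Proximal-tubule-like nuclei at the same 800 UMIs are given for comparison, although they may hold RNA of these genes of their own. There Cd44 was read in 0.12% of control and 0.613% of knockout nuclei, Tnc in 0.0467% and 0.109%, Fn1 in 0.207% and 0.566%, and Cdh6 in 0.314% and 0.489%. Before thinning the median nucleus held 1633 and 1506.5 UMIs in the parietal-like class and 1956 and 1503 UMIs in the proximal-tubule-like class. The parietal-like shares of the knockouts lie above these proximal tubule shares for these 4 genes, and the part of free RNA in them was not tested. For Nrp1, the proximal tubule shares were 6.92% and 9.62%.

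The order of the classes was set by the mean CPM of the libraries, and it differs between the genes. In the controls Tnc was highest in parietal-like nuclei (155.6 ± 60.3 CPM, SD, n = 3), and the next class, injured-tubule-like nuclei, read 0 and 18.1 CPM in its 2 libraries. Cd44 was highest in immune-like nuclei (61.2 ± 11.6 CPM), above injured-tubule-like nuclei (14.1 ± 5.62 CPM, n = 2). Fn1 was highest in stromal-like (86.8 ± 71.6 CPM) and Csmd1-led nuclei (76.8 ± 31.3 CPM), which do not differ beyond their spread. Cdh11 was highest in Csmd1-led nuclei (179 ± 121 CPM), with parietal-like nuclei next at 58.7 ± 78.0 CPM and overlapping them. So in control tissue the parietal-like class led for Tnc but not for Cd44, Fn1 or Cdh11.

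Control Cdh6 was read at 283 CPM in thin-limb-like nuclei, a class with 10 or more nuclei in 1 control library, at 240.5 ± 143 CPM in parietal-like nuclei and at 122 ± 54.2 CPM in thick-ascending-limb-like nuclei. The parietal-like libraries overlap both of the others, while the 1 thin-limb-like value lies above the 71.1 to 179 CPM of the thick-ascending-limb-like libraries. Nrp1 was highest in stromal-like (607 ± 183 CPM) and endothelial-like nuclei (545 ± 251 CPM), which overlap, and neuropilin 1 is well known as an endothelial receptor. Stromal-like nuclei also led for Map1b (104 ± 65.9 CPM), Hdac9 (344 ± 216 CPM) and Frmd4a (276 ± 180.0 CPM). For Hdac9 the next class was type-B-intercalated-like nuclei at 153 ± 64.2 CPM, and for Frmd4a parietal-like nuclei at 131 ± 25.4 CPM and thick-ascending-limb-like nuclei at 124 ± 10.8 CPM. Most of these neighbours lie within each other's spread.

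In the knockouts the parietal-like class led for 7 of the 9 genes. Its means were 2414 ± 1410 CPM for Tnc, 1937 ± 318 for Cdh6, 1099 ± 724 for Fn1, 1028 ± 518 for Cdh11, 684 ± 291 for Frmd4a, 536 ± 270.0 for Map1b and 483 ± 438 for Cd44. The second class was far below for Tnc (Csmd1-led, 128 ± 57.4 CPM) and Cdh6 (thin-limb-like, 247 ± 155 CPM). For Cd44 it was injured-tubule-like nuclei at 351 ± 63.0 CPM, within the spread of the parietal-like libraries, and for Cdh11 Csmd1-led nuclei at 443 ± 144 CPM. The Cd44 lead holds only with the clusters of the injured-tubule-like class pooled. Its cluster S29 alone read 780.5, 920 and 1092 CPM in knockouts 1 to 3. The parietal-like nuclei of the same libraries read less, at 148, 323 and 979 CPM. Stromal-like nuclei still led for Nrp1 (875 ± 897 CPM, against 826 ± 334 in parietal-like nuclei) and for Hdac9 (565 ± 452 against 353 ± 235 CPM), without a difference beyond the spread in either case. The choice of members fixed the rise of the parietal-like class in this order.

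Injured-tubule-like nuclei were named from Havcr1 (kidney injury molecule 1), Vcam1 and related genes, and held 97, 6 and 21 nuclei in the controls against 1982, 498 and 346 in the knockouts. They came from 2 clusters in different proportions. Cluster S29, led by Cd44 itself with Kcnip4, Havcr1, Creb5 and Vcam1, held 11 control and 887 knockout nuclei, and cluster S31, led by Kcnip4, Dock10 and Vcam1, held 113 and 1939. Control 2, with 6 nuclei, was left out of the fit. Cd44 read 10.1 and 18.1 CPM in controls 1 and 3 and 374, 279.6 and 399 CPM in the knockouts. It rose, at a log2 change of 4.84 ± 0.47 (SE; edgeR quasi-likelihood test, adjusted p = 0.00535 over 8271 genes, 0.340 at the largest over the alternatives).

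Cd44 was thus the only member called of 9 tested in injured-tubule-like nuclei, where 0.206% of 8271 genes were called. All 9 members were fitted higher, with a median log2 change of 2.06 against 0.04 over all genes. In the 2 fitted controls, however, Fn1 and Frmd4a had 0 UMIs, and Tnc, Cdh11 and Hdac9 had 1 UMI each. A higher fit was close to fixed for these genes by such low counts, so nothing is read from the 9 or from the median. Of the members, 5 had an unadjusted p under 0.05, as did 12.5% of all genes. Nrp1 read 65.8 and 108 CPM in controls 1 and 3 and 169.8, 155 and 199.6 CPM in the knockouts (log2 1.15 ± 0.32 SE, edgeR adjusted p = 0.193). Map1b read 10.1 and 18.1 CPM and then 67.8, 43.7 and 84.1 CPM (2.41 ± 0.67 SE, adjusted p = 0.193). Neither passed, although the knockout libraries lie above the 2 controls for both genes, as they do for 5 of the 9 members and for 20.4% of all genes. Fn1 read 0 in both controls and 18.2, 30.5 and 36.3 CPM in the knockouts; with 0 UMIs among 124 control nuclei and 115 in the knockouts it was at least 1.90-fold higher by the same floor (adjusted p = 0.221). Cdh6 read 111 and 72.3 CPM in the controls against 65.2, 245 and 252 CPM in the knockouts, with knockout 1 below both controls. Tnc read 0 and 18.1 CPM and then 11.2, 26.5 and 19.8 CPM, so the groups overlap. The markers that name the class were themselves higher in its knockout nuclei: over the group Havcr1 read 23.2 against 348 CPM, Vcam1 42.5 against 332 CPM, and the 13 injured tubule markers summed to 417 ± 248 against 1337 ± 79.7 CPM (SD, n = 3, control 2 with its 6 nuclei included), with 10 of 13 higher. The 8 cycling markers summed to 17.1 ± 18.1 against 102 ± 47.5 CPM, with 7 of 8 higher. Their part in the levels of the members was not tested.

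Cd44 was read in both clusters of the class. In cluster S29, which it leads, Cd44 read 780.5, 920 and 1092 CPM in the knockouts, with 1 UMI in the 11 control nuclei. In cluster S31 alone, it read 5.56 and 20.6 CPM in controls 1 and 3 and 158, 102 and 66 CPM in the knockouts. That difference (log2 3.61, edgeR adjusted p = 0.208) did not pass, but did with the replicate number as a block (3.85, adjusted p = 0.0306). Without control 1, which leaves 1 control library that is assumed to vary like the others, the change over both clusters was 4.52 on the log2 scale and did not pass either (adjusted p = 0.340). With classes from clusters made with the 9 genes it was 4.22 (adjusted p = 0.0744). Cd44 was also the 1 member called there by DESeq2 (2.64% of genes called), with the replicate number as a block (1.80%) and without both libraries numbered 1 (1.23%), a fit in which control 3 is the lone control and is assumed to vary like the other libraries. With no low-count filter Fn1, Nrp1 and Map1b were called too (1.51%).

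The stromal-like class, led by Ren1 and Myh11 in its main cluster, had 31, 20 and 19 control and 55, 11 and 22 knockout nuclei. Of the members only Nrp1 and Hdac9 passed its low-count filter, and 0 were called among 917 genes (0.0%), with 0 members at an unadjusted p under 0.05 (10.3% of all genes) and 0 called by DESeq2. Nrp1 read 433, 590 and 799 CPM in the controls against 213, 515 and 1896 CPM in the knockouts (log2 0.40 ± 0.63 SE, edgeR adjusted p = 0.918). Hdac9 read 338, 563 and 130.0 CPM and then 254.5, 357 and 1083 CPM (0.58 ± 0.57 SE, adjusted p = 0.860). Both groups overlap widely, and knockout 3 is the highest library for each gene. Tnc read 7.34, 0 and 0 CPM in the stromal-like controls and 57.5, 39.6 and 154.7 CPM in the knockouts. Every knockout thus lies above every control for Tnc. The share of all genes with that order was not counted in this class, so nothing is read from it. With 1 control and 12 knockout UMIs, Tnc was too low for the fit and was not tested there.

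A further set of clusters was led by Csmd1, Fhl2 and Lama2. These clusters had raised stromal markers, and parietal markers were raised too, with scores of 2.27 and 2.13 in S9.11. In S9.0 and S9.7 the parietal score was the higher, at 1.19 against 1.11 and 1.65 against 1.61. S9.0 held 28, 10 and 40 control and 57, 13 and 11 knockout nuclei. S9.7 held 12, 7 and 34 control and 50, 13 and 34 knockout nuclei. Whether they are parietal or stromal was not tested. The set was named by its leading genes, with no cell type name, and was kept apart from the stromal-like class. It held 56, 25 and 92 control and 231, 57 and 95 knockout nuclei. Cdh11 read 39.5, 245 and 252 CPM in the controls against 284, 481 and 564.5 CPM in the knockouts, so every knockout lies above every control. Its log2 change of 1.36 ± 0.51 (SE) did not pass (edgeR adjusted p = 0.424), but did with the replicate number as a block (1.51, adjusted p = 0.0316, in a fit that called 2.27% of genes). Fn1 read 46.1, 109 and 75.7 CPM and then 143, 114 and 307 CPM (1.40 ± 0.45 SE, adjusted p = 0.344). The knockout libraries again lie above the controls, as for 9.05% of all genes tested there. Other markers moved with these genes in the class: the 14 stromal markers summed to 713 ± 221 against 1921 ± 555 CPM (SD, n = 3), with 12 of 14 higher, and the 8 cycling markers to 34.5 ± 25.7 against 260.4 ± 155 CPM, with 8 of 8 higher. Its sub-cluster S9.11 held 1, 1 and 4 control nuclei and 37, 12 and 19 knockout nuclei. Their part in the levels of Cdh11, Fn1 and Tnc was not tested.

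Tnc read 6.58, 0 and 6.31 CPM in the Csmd1-led controls and 61.9, 165 and 158 CPM in the knockouts, from 2 and 58 UMIs, which makes the level 16.3 times as high (interval 4.30 to 138). Cd44 had 1 control and 24 knockout UMIs, and Map1b 1 and 26. These 3 genes did not pass the low-count filter and were not tested there. Of the 4 members tested, 0 were called by edgeR or DESeq2, where 0.0933% of 3214 genes were called by edgeR and 0.312% by DESeq2, and 2 had an unadjusted p under 0.05, as did 9.80% of all genes. In the fit without knockout 1, and in that without both libraries numbered 1, Tnc entered and was called (0.311% of genes in the latter). With no low-count filter Tnc and Cdh11 were called, with 0.389% of genes.

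Over all nuclei outside the parietal-like class, the 9 members were tested together with 16113 genes, of which 0.168% were called by edgeR. None of the 9 members was called; 5 had an unadjusted p under 0.05, where 9.81% of all genes did, and DESeq2 called 4 (Fn1, Cd44, Tnc and Map1b), with 2.97% of genes. With no low-count filter edgeR called Cd44, with 0.242% of genes. This level mixes the makeup of a library with the level per nucleus. It also takes in 184 knockout nuclei that become parietal-like when the members are used for clustering, so it may not be free of the choice of members. Cd44 read 1.34, 4.02 and 5.53 CPM in the controls against 54.3, 31.9 and 28.9 CPM in the knockouts (log2 3.44 ± 0.53 SE, edgeR adjusted p = 0.0719). Fn1 read 4.6, 4.15 and 4.84 CPM and then 12.5, 11.1 and 12.8 CPM (1.36 ± 0.21 SE, adjusted p = 0.0719). Tnc read 0.699, 1.30 and 1.12 CPM and then 3.56, 6.25 and 5.10 CPM (2.25 ± 0.39 SE, adjusted p = 0.0935). All 3 knockouts lie above all 3 controls for each of these genes, as for 10.5% of all genes.

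With the replicate number as a block these 3 genes passed outside the parietal-like class: Cd44 at 3.55 (adjusted p = 0.0452), Tnc at 2.20 (0.0286) and Fn1 at 1.36 (0.0350), in a fit that called 1.53% of genes. Without both libraries numbered 1, 5 members passed, where 2.85% of genes did. Map1b read 8.88, 4.54 and 4.06 CPM in the controls against 16.9, 15.2 and 27.7 CPM in the knockouts (log2 1.65 ± 0.40 SE, edgeR adjusted p = 0.189). Cdh6 read 13.8, 17.6 and 14.4 CPM and then 17.9, 35.05 and 35.4 CPM (0.89 ± 0.28 SE, adjusted p = 0.311). Both genes have their knockouts above their controls. For Cdh11 (0.50 ± 0.52 SE), Nrp1 (0.17 ± 0.17), Frmd4a (0.19 ± 0.23) and Hdac9 (-0.28 ± 0.32) the groups overlapped, at adjusted p from 0.818 to 0.869. The median over the 9 members was 0.89 on the log2 scale, against -0.03 over all genes tested.

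In the other classes 0 members were called, and DESeq2 called 0. Hdac9, Nrp1, Map1b, Fn1 and Cdh6 had an unadjusted p under 0.05 in at least 1 of them, Map1b in 3. Of all genes, such a p was reached by 11.4% in podocyte-like, 7.24% in proximal-tubule-like, 5.85% in thick-ascending-limb-like, 5.84% in endothelial-like, 5.79% in connecting-tubule- and principal-cell-like and 5.13% in distal-convoluted-tubule-like nuclei. The 2 members tested in immune-like nuclei, where 6.44% of genes had such a p and 0.046% were called, had none. Nor did Nrp1, the 1 member tested in cycling nuclei (6.01% of genes), nor Nrp1 in type-A-intercalated-like nuclei (6.76% of 4987 genes) or Nrp1 and Hdac9 in type-B-intercalated-like nuclei (5.37%, with 0.0203% called). In podocyte-like nuclei Map1b read 76.2, 13.8 and 31.8 CPM in the controls against 97.8, 133 and 150.4 CPM in the knockouts (log2 1.35 ± 0.51 SE, edgeR adjusted p = 0.387; 2 members tested, 0.264% of 3030 genes called). Its log2 change was 0.89 ± 0.37 (SE) in endothelial-like nuclei (adjusted p = 0.798; 4 members tested, 0.0132% of 7549 genes called) and 1.30 ± 0.53 in thick-ascending-limb-like nuclei (adjusted p = 0.808; 5 members tested, 0.0125% of 8023 genes called). In thick-ascending-limb-like nuclei Cdh6 was lower, from 71.1, 115 and 179 CPM to 58.4, 66.1 and 84.8 CPM (log2 -0.76 ± 0.33 SE, adjusted p = 0.839), with groups that overlap. Of 8 members tested in proximal-tubule-like nuclei Fn1 had the smallest p (log2 1.30 ± 0.44 SE, adjusted p = 0.593; 0.0304% of 13144 genes called). Tnc, at 6 UMIs in the podocyte-like controls, was at 0 in the knockouts, and Frmd4a read 49.2, 34.4 and 57.3 CPM and then 19.6, 30.6 and 20.1 CPM there; every knockout lay below every control for 10.1% of genes in that class. The same order held for Cdh6 and Hdac9 in connecting-tubule- and principal-cell-like nuclei (4.46% of genes) and for Nrp1 and Frmd4a in type-A-intercalated-like nuclei (5.05%). Of the members with this order, only Hdac9 and Nrp1 passed the low-count filter over which these shares were taken.

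The share of each class in the whole-library difference was read from the mean CPM that its UMIs contribute to all kept UMIs. Cd44 went from 3.62 to 40.3 CPM of the whole library, and 28.5 of the 36.7 CPM difference (77.7%) lay in injured-tubule-like nuclei and 5.71% in parietal-like nuclei. Tnc went from 1.48 to 14.6 CPM, of which 70.1% of the difference lay in parietal-like, 11.4% in injured-tubule-like and 9.67% in Csmd1-led nuclei. The injured-tubule-like part rests on the border between the classes. Of the 75 Tnc UMIs of knockout injured-tubule-like nuclei, 63 lay in 184 nuclei that become parietal-like when the members are used for clustering. Parietal-like nuclei, at 0.302 to 0.531% of the knockout nuclei, thus held most of the added Tnc and little of the added Cd44. Fn1 went from 4.52 to 16.7 CPM, with 37.7% in parietal-like, 18.0% in injured-tubule-like and 11.8% in Csmd1-led nuclei.

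Of the cadherins, Cdh6 went from 15.8 to 36.9 CPM, with 64.7% of the difference in injured-tubule-like and 33.3% in parietal-like nuclei. That split rests on the border between the classes, since 184 nuclei that become parietal-like when the members are used for clustering hold 411 of the 589 Cdh6 UMIs of knockout injured-tubule-like nuclei. Cdh11 went from 14.1 to 24.3 CPM, with 40.1% in parietal-like, 29.5% in Csmd1-led and 13.8% in injured-tubule-like nuclei. The cadherins thus differ in the class that follows. Map1b went from 5.91 to 22.1 CPM (31.9% injured-tubule-like, 13.1% parietal-like), and thick-ascending-limb-like nuclei held 2.85 CPM of its difference, more than the 2.12 CPM of parietal-like nuclei. Frmd4a went from 26.3 to 33.5 CPM, of which thick-ascending-limb-like nuclei held 2.76, parietal-like 2.40 and injured-tubule-like 1.91 CPM. Nrp1 went from 165 to 196 CPM, with 45% of the difference in injured-tubule-like, 33.6% in cycling and 9.49% in parietal-like nuclei, and 8.47 CPM of it in thick-ascending-limb-like nuclei. Hdac9 was lower over the whole library, at 25.5 and 22.9 CPM, while its parietal-like part was higher by 1.41 CPM. These shares follow the number of nuclei in a class as much as the level in them: injured-tubule-like nuclei made up 0.160 to 0.590% of control and 6.0 to 10.9% of knockout libraries.

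**Figure D2:**
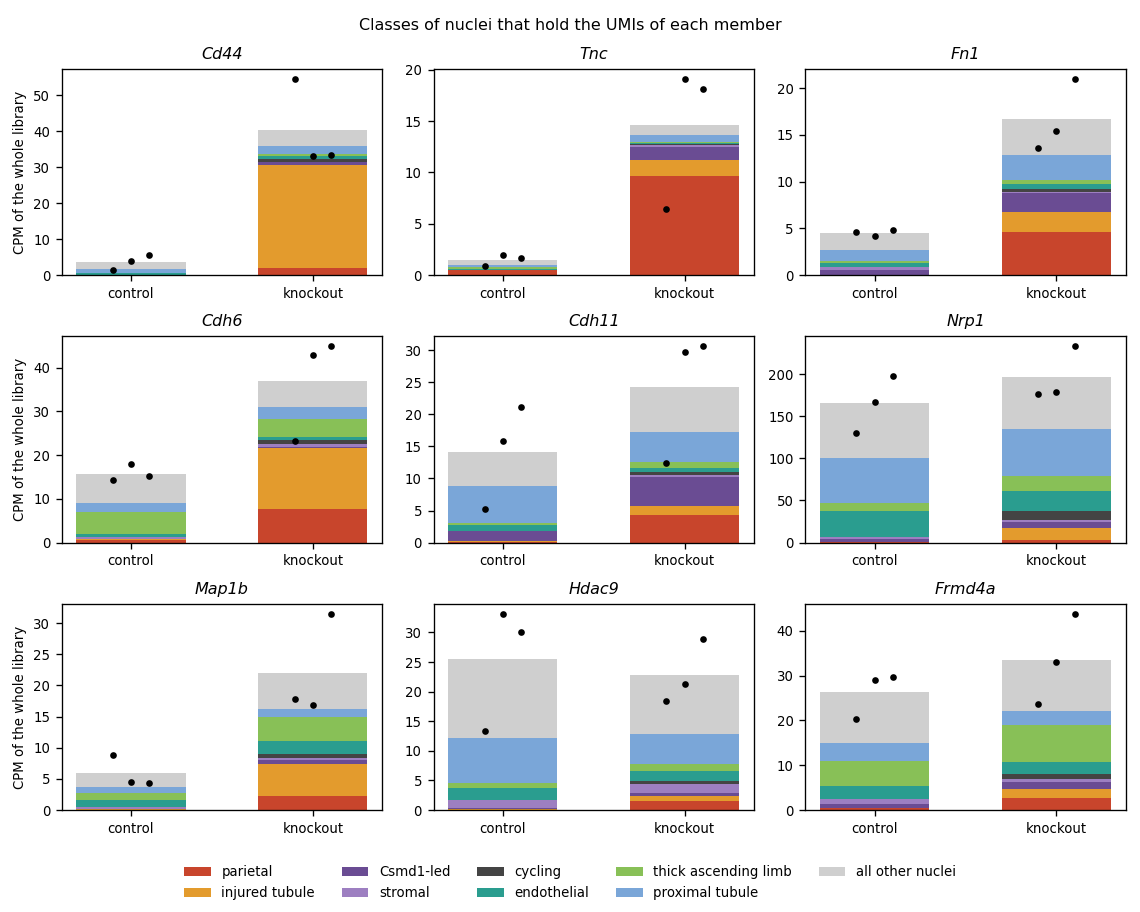
Mean CPM of the whole library for each gene (bar height, n = 3 libraries per group), split by the class of nuclei that holds the UMIs; points are the 3 libraries. The added Cd44 lies mostly in injured-tubule-like nuclei and the added Tnc mostly in parietal-like nuclei.

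How many different members 1 nucleus held was counted at 800 UMIs. Of the knockout parietal-like nuclei, 47 of 91 (51.6%, exact 95% interval 40.9 to 62.3%, counting error only) held 3 or more members and 16 held none, and 7 was the highest number in a nucleus. Of the controls 2 of 48 (4.17%, 0.509 to 14.3%) held 3 or more. By library the share was 3.7%, 0 and 7.69% in the controls against 34.5%, 68.8% and 85.0% in the knockouts, so the groups do not overlap and knockout 1 is the lowest of its group. The mean over the knockout libraries was 62.8 ± 25.8% (SD, n = 3), and 33.4% where the clusters were made with the 9 genes. Without thinning the shares were 14.8% and 64.8% of all nuclei of the 2 groups.

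Outside the parietal-like class such nuclei were rare. Csmd1-led nuclei with 3 or more members were 3 of 132 in the controls (2.27%) and 25 of 314 in the knockouts (7.96%, interval 5.22 to 11.5%). Stromal-like nuclei were 3 of 60 (5.00%) and 7 of 76 (9.21%), with intervals that overlap. Injured-tubule-like nuclei were 0 of 118, which allows up to 2.54%, and 44 of 2674 (1.65%), and 41 of these 44 lay in the Cd44-led cluster S29 (4.75% of 863). Over all nuclei outside the parietal-like class the share was 0.0554, 0.167 and 0.186% in the controls against 0.295, 0.682 and 0.652% in the knockouts. The difference of 0.407 percentage points had p = 0.1 in a two-sided exact permutation test, the smallest that the 20 assignments allow, with all 3 knockouts above the controls. Outside the class lie 184 knockout nuclei that become parietal-like when the members are used for clustering. The test may therefore not be free of the choice of members.

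Of the 155 knockout nuclei with 3 or more members, 47 (30.3%) were parietal-like, 44 (28.4%) injured-tubule-like and 25 (16.1%) Csmd1-led. The mix of genes in them differed. In the 47 parietal-like nuclei Cdh6 was present in 76.6%, Tnc in 72.3%, Nrp1 in 59.6%, Cdh11 in 51.1%, Fn1 in 42.6% and Cd44 in 29.8%. In the 44 injured-tubule-like nuclei Cd44 was present in 84.1%, Cdh6 in 72.7%, Nrp1 in 54.5% and Map1b in 43.2%, but Tnc in 18.2% and Cdh11 in 9.09%. Cdh6 and Nrp1 were thus common to both sets, with Tnc and Cdh11 in the parietal-like set and Cd44 in the injured-tubule-like set; these differences between the sets were not tested.

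**Figure D3:**
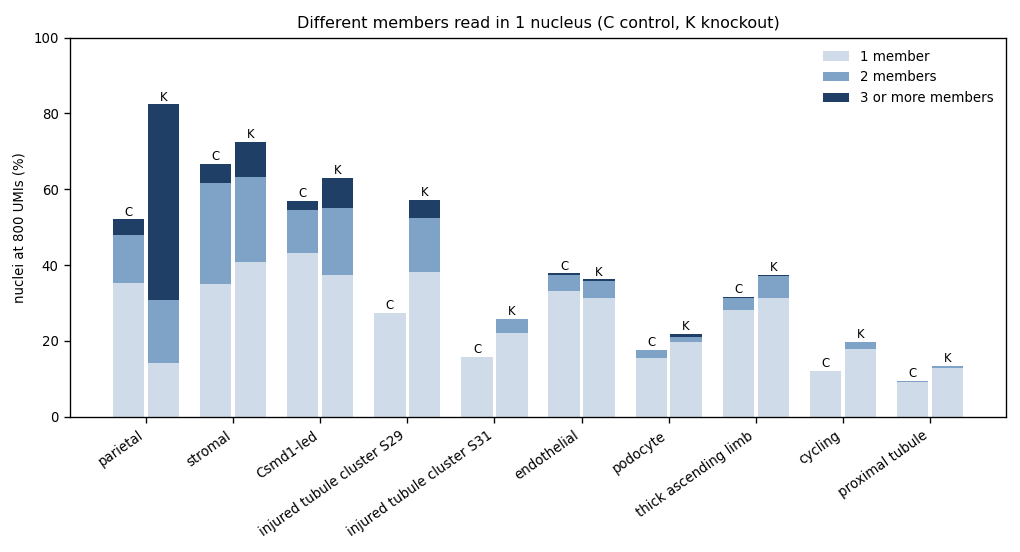
Percent of nuclei, each thinned to 800 UMIs, that held 1, 2 or at least 3 different members, for control (C) and knockout (K) nuclei of each class; the bars pool the nuclei of 3 libraries. The knockout parietal-like bar reaches 51.6% for 3 or more members, against 4.17% in the controls and 7.96% in knockout Csmd1-led nuclei.

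Pairs of members were compared within the 91 knockout parietal-like nuclei, as a description. Of 41 nuclei with Tnc, 39% also held Fn1, against 10.0% of the 50 nuclei without Tnc, and 34.1% held Frmd4a, against 8.00%. Cd44 was read in 38.1% of the 21 nuclei with Fn1 and in 10.0% of the other 70. Frmd4a was read in 35.1% of the 37 nuclei with Nrp1 and in 9.26% of the rest. Each of these pairs occurred together in all 3 knockout libraries. Taking the 36 pairs within each library, 32, 25 and 21 pairs occurred together more often than the product of their shares in knockouts 1, 2 and 3. There 4, 10 and 12 pairs occurred together less often. Tnc with Fn1, and Cd44 with Fn1, thus tended to lie in the same parietal-like nuclei. The pairs named here were picked from the 36, and their percentages pool 3 libraries that differ in their share of nuclei with several members.

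In injured-tubule-like nuclei 25, 21 and 26 of the 36 pairs occurred together more often than the product of their shares in knockouts 1, 2 and 3. Less often together were 11, 15 and 10 pairs. Of 149 nuclei with Cdh6, 5.37% also held Tnc, against 0.317% of the 2525 without. Of 16 nuclei with Tnc, 5 held Fn1 (31.2%, against 1.5%) and 8 held Cdh6 (50%, against 5.30%). These are small counts, and Tnc was read in 16 of 2674 nuclei in all. Cd44, read in 506 nuclei, was present in 46.3% of the nuclei with Map1b and 51.1% of those with Fn1. In knockout Csmd1-led nuclei, Map1b was read in 16.7% of the 36 nuclei with Fn1 and in 2.16% of the rest.

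**Figure D4:**
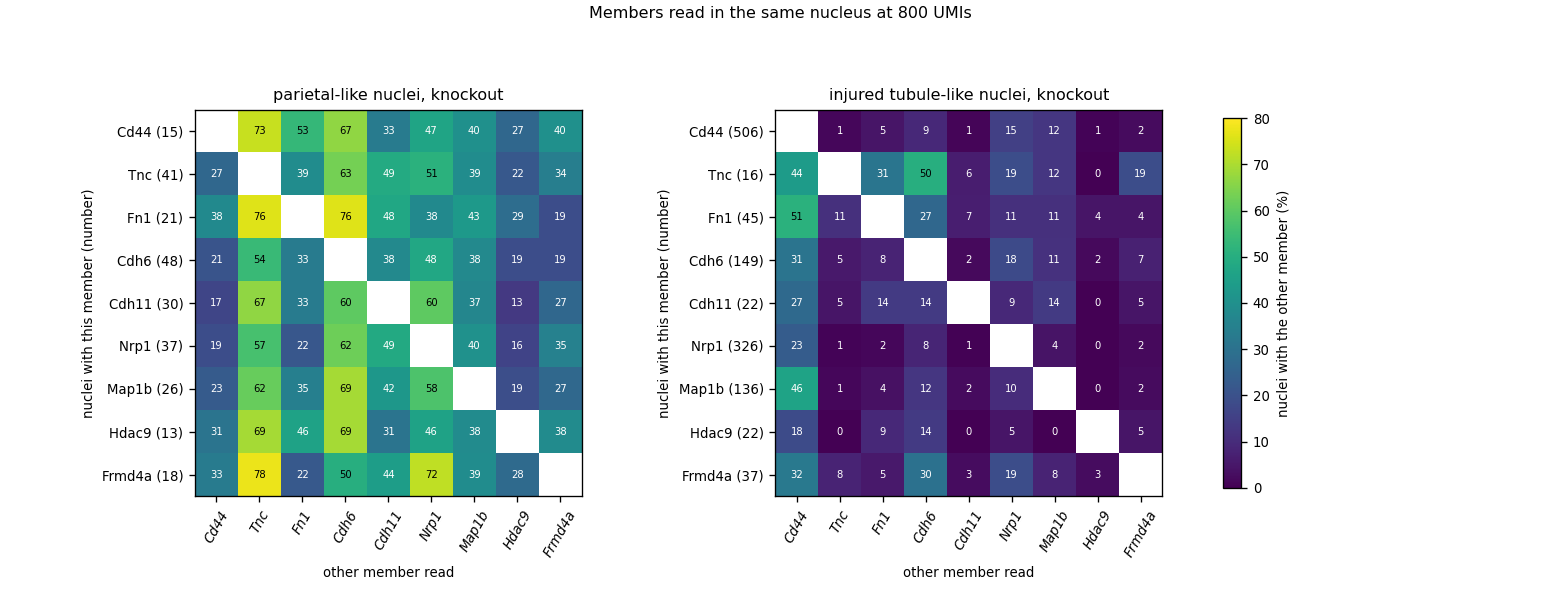
Percent of nuclei with the row gene (number of such nuclei in brackets) that also held the column gene at 800 UMIs, in knockout parietal-like and knockout injured-tubule-like nuclei. The shares are higher in the parietal-like grid than in the injured-tubule-like grid for most pairs, and lower for Cd44 given Tnc, Fn1, Cdh6, Cdh11, Nrp1 or Map1b.

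Parietal-like nuclei with 3 or more members were compared with those with 0 to 2 by their markers. The summed parietal markers were 1897 and 1794 CPM in the 2 sets of knockout nuclei. Stromal markers read 1153 against 80.2 CPM, endothelial markers 555.5 against 120.3 CPM, injured tubule markers 1017 against 672 CPM and cycling markers 199 against 150.4 CPM. Proximal tubule markers read 4350 against 10070.0 CPM. The sets thus had near levels of parietal markers and different levels of the others, whose part in the result was not tested.

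Sub-clusters, formed again without the 9 genes, showed where in the parietal-like cluster the members lie. Sub-cluster S33.1, of 5 control and 25 knockout nuclei (7, 9 and 9 in knockouts 1 to 3), read 1228 CPM of Cd44, 4100 CPM of Tnc, 1941 CPM of Fn1 and 1525 CPM of Cdh11. It held 77.5% of the Cd44 UMIs of the knockout class, 56.9% of the Tnc UMIs and 57.6% of the Fn1 UMIs, and 79.2% of its nuclei held 3 or more members. Its cycling marker score (mean log2 ratio to all other nuclei) was 0.95, the highest of the parietal-like sub-clusters. Sub-cluster S33.0, of 9 control and 19 knockout nuclei, read 0 CPM of Cd44, 198 CPM of Tnc and 948 CPM of Cdh6. Cdh6 was thus read in sub-clusters that had no Cd44. Sub-clusters were chosen from the same nuclei, so these values are a description.

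**Figure D5:**
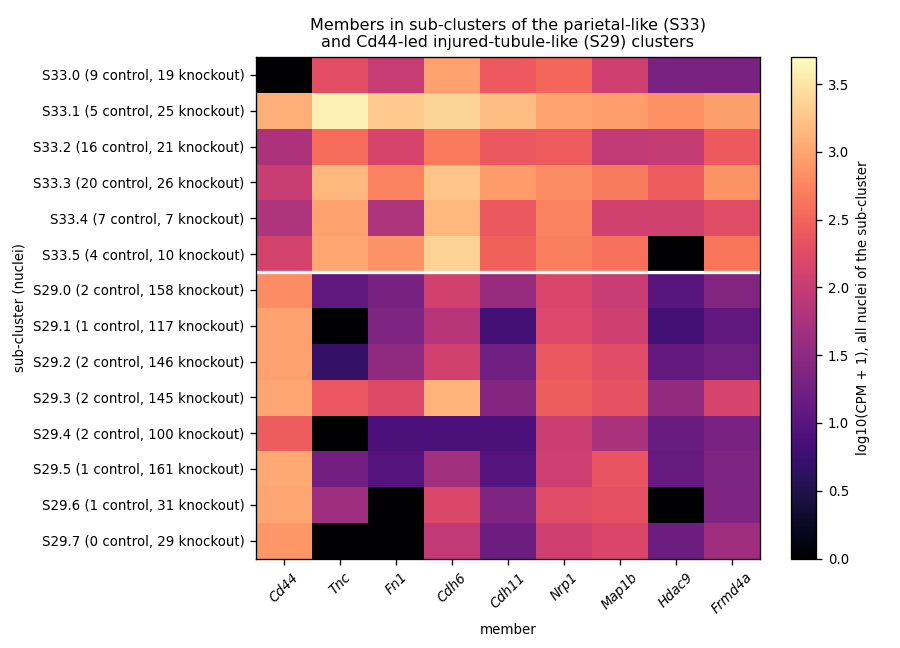
Level of each gene, as log10(CPM + 1) over all nuclei of a sub-cluster, in the sub-clusters of the parietal-like cluster S33 (above the white line) and of the Cd44-led injured-tubule-like cluster S29 (below it); brackets give the nuclei of each group. S33.1 is high for all 9 genes, and S29.3 is the S29 sub-cluster with high Cdh6.

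Within cluster S29, 1 sub-cluster had a higher parietal marker score and more Cdh6 and Tnc than the others. Sub-cluster S29.3 (2 control nuclei, and 77, 38 and 30 in the knockouts) read 1030 CPM of Cd44, 1303 CPM of Cdh6, 236 CPM of Tnc and 166 CPM of Fn1. The other S29 sub-clusters read 6.68 to 155.6 CPM of Cdh6 and 0 to 44.5 CPM of Tnc. Its marker scores were 1.38 for parietal, 1.65 for injured tubule and 1.82 for cycling nuclei, and 17.7% of its nuclei held 3 or more members. Akap12, a parietal marker, stood among its leading genes beside Cdh6 and Cd44.

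The border between these classes depended on the 9 genes. When they were allowed among the clustering genes, 184 knockout nuclei (84, 62 and 38) passed from injured-tubule-like to parietal-like, 115 of them from S29.3. All 108 knockout and 58 of 61 control nuclei of the parietal-like class stayed in it. The moved nuclei read 1098 CPM of Cd44, 1363 CPM of Cdh6, 209 CPM of Tnc and 143 CPM of Fn1. Their parietal markers summed to 1254 CPM, between the 339 CPM of all knockout injured-tubule-like nuclei and the 1926 CPM of the parietal-like ones, and their injured tubule markers to 2162 CPM. Whether they are parietal or tubule cells was not settled by these markers, and no name is given to them.

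The partner genes of the members were read from 8 lists. In the tests outside the parietal-like class 0 genes of any list were called by edgeR. Among 22 matrix and cross-linking genes, 20 were tested over all nuclei outside that class, 14 higher and 6 lower, 8 at an unadjusted p under 0.05 (9.81% of all genes), with a median log2 change of 0.29 against -0.03 over all genes. The fibrillar collagen gene Col3a1 read 2.02 ± 0.743 and 8.28 ± 0.373 CPM there (log2 1.92 ± 0.34 SE, edgeR adjusted p = 0.0982, n = 3). The collagen cross-linker Loxl2 read 3.57 ± 0.223 and 7.42 ± 0.868 CPM (1.00 ± 0.24 SE, adjusted p = 0.187). In Csmd1-led nuclei 8 of 9 matrix genes tested were higher (median log2 0.76), and Col3a1, at 41.0 ± 39.6 and 344 ± 135 CPM, passed with the replicate block alone (log2 2.42, adjusted p = 0.0239, against 0.167 without).

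Receptors and partners of the matrix proteins followed. Among 13 integrins and other receptors for fibronectin and tenascin C, 6 were tested in injured-tubule-like nuclei, 5 of them higher (median log2 0.50). Itgav, which encodes the integrin alpha V chain, read 429 ± 134 (n = 2) and 867 ± 24.6 CPM (log2 1.09 ± 0.25 SE, edgeR adjusted p = 0.140, and 0.0403 with the block). Of 14 hyaluronan and CD44 partner genes 7 were tested there, 2 higher and 5 lower. Msn, an actin linker of CD44, was among the higher, at 73.7 ± 53.2 and 185 ± 26.1 CPM (edgeR adjusted p = 0.287). Over all nuclei outside the parietal-like class Hmmr, a hyaluronan receptor that is also a mitotic gene, read 1.11 ± 0.693 and 8.38 ± 3.82 CPM (log2 3.00 ± 0.65 SE, adjusted p = 0.148, and 0.0160 with the block).

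The remaining lists were counted over the same nuclei. Of 19 other cadherin and catenin genes tested outside the parietal-like class 8 were higher and 11 lower, and Cdh4 was lower, at 31.1 ± 7.07 and 14.5 ± 1.46 CPM (log2 -1.15 ± 0.19 SE, edgeR adjusted p = 0.0817, 0.0317 with the block). Of 17 neuropilin ligands and co-receptors 7 were higher and 10 lower, and the semaphorin Sema3g was lower, at 11.1 ± 1.36 and 4.59 ± 0.172 CPM (log2 -1.33 ± 0.22 SE, adjusted p = 0.0851, 0.0461 with the block). Of 12 microtubule-associated genes 10 were higher (median log2 0.33, against -0.03 over all genes), and in Csmd1-led nuclei the doublecortin-like kinase gene Dclk1 read 11.2 ± 14.2 and 186 ± 124 CPM (log2 4.59 ± 0.85 SE, adjusted p = 0.113, 0.0042 with the block). The 10 histone deacetylase and MEF2 genes (5 higher, 5 lower) and the 14 FERM and polarity genes (7 higher, 7 lower) were evenly divided.

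In parietal-like nuclei the same lists are a description. Matrix and cross-linking genes summed to 800 ± 194 CPM in the controls against 2936 ± 1390 CPM in the knockouts (SD, n = 3), with 19 of 21 read genes higher in the mean. Every knockout was above every control for 8 of them: Col4a1, Col4a2, Col5a1, Col8a1, Ctgf, Loxl2, Vcan and Bgn. The same order held for 11% of the 891 genes that passed the low-count filter in this class. That filter was not applied to the list, and Bgn had 2, 0 and 0 UMIs against 4, 1 and 3. The basement membrane collagen gene Col4a1 read 254, 173 and 331 CPM and then 484, 1162 and 884.5 CPM, and Loxl2 0 in the 3 controls and 57.4, 226 and 226 CPM in the knockouts. Integrins and other receptors summed to 1202 ± 268 and 1769 ± 378 CPM. Of the hyaluronan and CD44 partners, Msn had every knockout above every control. FERM and polarity genes summed to 2242 ± 456 and 2143 ± 178 CPM, with 8 of 14 read genes higher in the mean. Genes within this sum went both ways: Pard3 read 601 and 818 CPM in the mean, Prkcz 217 and 84.1 CPM, and Frmd4b 1134 and 777.5 CPM.

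The genes whose levels ran most like each member were taken over 91 sums of a class in a library (16 classes), among 12207 genes. The sums share libraries and depth, and the members were chosen for 1 of the classes, so these Pearson correlations are a description. Fn1 and Cdh11 were nearest to each other (r = 0.79). Tnc was nearest to Clstn2 (0.82), Akap12 (0.76) and Chsy3 (0.74), and Cdh6 to Akap12 (0.71), Map1b (0.70) and Pdgfd (0.69). Cd44 was nearest to Creb5 (0.73), Nfkb1 (0.73) and Vcam1 (0.69), of which Vcam1 is a marker of the injured-tubule-like class. Nrp1 was nearest to Adamts12 (0.75), Gjc1 (0.74) and Arhgef25 (0.72), Map1b to Samd4 (0.78) and Speg (0.71), Hdac9 to Ppp1r12a (0.72), Zfhx3 (0.68) and Ank (0.64), and Frmd4a to Zfpm2 (0.74) and Gpc6 (0.73).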

How the data were processed

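The deposited values were raw UMI counts per gene and barcode, made by the authors with Cell Ranger 3.1.0 on mm10, per the file headers; the submitters' processing notes also name Seurat, without its role. Whether intron reads were counted is not given in the sources used here. The 9 members, the marker lists and the partner lists were chosen with earlier results of these data known, and the thresholds for naming clusters were set after the clusters were seen.

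A barcode was kept with 300 genes or more and no more than 5% mitochondrial UMIs, and the highest Scrublet doublet scores were removed at 0.8% per 1000 barcodes (3204, 104 and 182 in the controls, 3831, 187 and 293 in the knockouts); the automatic calls were 3535, 0 and 0, and 1664, 0 and 6. Nuclei, centred per library, were clustered without the members (scanpy 1.11.5, igraph 0.11.9) on 3000 variable genes, with 30 components and resolution 1.5, then 40 and 2.5 for nuclei outside the proximal tubule, then 20 and 1.0 within mixed clusters. Clusters were named from marker scores, and the parietal name also needed a raised mean of Cldn1, Ncam1 and Pax2.

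Counts were summed per class and library with 10 or more nuclei and tested with the edgeR 4.0.16 quasi-likelihood test (TMM, filterByExpr, limma 3.58.1, R 4.3.3), with Benjamini-Hochberg adjustment over all genes tested in a class and a threshold of 0.05. DESeq2 1.42.0, no filter, no TMM, doublets kept, other classes, other thinning depths, a replicate block and left-out libraries were the alternatives. Same-numbered control and knockout libraries deviated together (r = 0.624, 0.376 and 0.335 over 13086 genes), so the numbers were taken to pair them. Control 3 with knockout 2 (r = 0.432) and control 2 with knockout 3 (r = 0.262) did too, so only the libraries numbered 1 stood apart. The labels give no pairing, so calls made with the block rest on a pairing read from these data. Simulated 4-fold changes were recovered in 98.9% of genes outside the parietal-like class, 89.6% in Csmd1-led and 51.1% in injured-tubule-like nuclei; 2-fold changes in 52.6%, 13.0% and 7.89%.

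The limit that a count of 0 allows, and the floor of a fold, is 3 UMIs or 3 nuclei; intervals are exact at 95%; all cover counting error only. Members were read in every class, and the text gives a selection of their values. Partner genes were named for the smallest p in a list and class, up to 4 where any passed and up to 2 otherwise, and the text gives a selection of these. Some genes are not reported here. Likeness used log2(CPM + 10) for genes with 200 or more UMIs.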

Additional observations from a re-analysis of the deposited data

Results flagged for a closer look

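Among the classes with 10 or more nuclei in all 6 libraries, there were 6 cases in which a member was lower in every knockout library than in every control library of the class, while in parietal-like nuclei every knockout was above every control. These cases were picked from all 9 members in every such class, so nothing is read from their number. The difference between the classes was not tested in any of them. The shares of genes given below cover only genes that passed the low-count filter. Tnc and Frmd4a in podocyte-like nuclei did not pass it. Nor did Cdh6 in connecting-tubule- and principal-cell-like nuclei or Frmd4a in type-A-intercalated-like nuclei. In podocyte-like nuclei Tnc differed by -9.0 CPM (knockout minus control mean) and Frmd4a by -23.6 CPM, where 10.1% of 3030 genes had every knockout below every control. In connecting-tubule- and principal-cell-like nuclei Cdh6 differed by -5.79 CPM and Hdac9 by -16.5 CPM, against 4.46% of 8536 genes. In type-A-intercalated-like nuclei Nrp1 differed by -20.0 CPM and Frmd4a by -8.79 CPM, against 5.05% of 4987 genes.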

How the results depend on the processing

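Of the values for single members, 253 kept their direction and side of the threshold under an alternative, 18 passed it only there, 3 lost it and 7 changed sign. With the replicate number as a block, 3 members were called outside the parietal-like class (Cd44, Tnc and Fn1), 1 in Csmd1-led nuclei (Cdh11) and Cd44 in cluster S31 alone (log2 3.85, adjusted p = 0.0306), and the block changed no other call of a member. With no low-count filter, 1 member was called outside the parietal-like class, 2 in Csmd1-led nuclei, 4 in injured-tubule-like nuclei and 1 in thick-ascending-limb-like nuclei. DESeq2 called 4 outside the parietal-like class. Without both libraries numbered 1 the calls were 5 outside that class, 1 in Csmd1-led nuclei and 1 in injured-tubule-like nuclei (Cd44, as with all libraries). Leaving out 1 library gave 0 to 1 calls in injured-tubule-like nuclei (0 without control 1) and 0 to 1 in Csmd1-led nuclei (1 without knockout 1). In injured-tubule-like nuclei 0 members were called with cluster S31 alone and all else as in the main fit, an alternative chosen after seeing the data. Cd44 did pass in S31 under other settings, the block among them. With classes from clusters made with the members 0 were called.

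The mean share of knockout parietal-like nuclei with 3 or more members, 62.8%, was 33.4% with clusters made with the members and 35.7% with each cluster given its highest marker score. The log2 change of Cdh6 in injured-tubule-like nuclei became -1.0 with clusters made with the members and -0.79 in S31 alone. That of Hdac9 there became -0.35 without control 1 (up to 7.01 with another library left out, a fitted value against a control at 0) and -0.17 without both libraries numbered 1. That of Frmd4a became -0.30 in Csmd1-led nuclei with doublets kept and ranged from -0.0698 (without control 1) to 0.806 there with 1 library left out; outside the parietal-like class it ranged from -0.00234 (without knockout 3) to 0.396. None of these 7 passed the threshold, and the cause was not tested. The highest-score setting leaves no Csmd1-led class, and the block could not be fitted in urothelial-like nuclei. With 6 control nuclei in 1 library and 124 in all, depth limits the injured-tubule-like comparison.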
